A study of Mus musculus with 1528 samples.

Results

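The genes described are 8 genes of cholesterol synthesis and its control: Hmgcs1, Idi1, Fdft1, Sqle and Cyp51, which encode enzymes of the pathway, Srebf2 and Insig1, which control it, and Scd2, a fatty acid desaturase that shares their regulation. They were taken by symbol as 8 of the 55421 gene rows of a count table of single bone marrow-derived macrophages (BMDMs). The cells were from 2 wild-type C57BL/6 mice, grown in M-CSF and given IL4+IL13 alone or IL4+IL13+TNF for 24 h at 10 ng/ml per cytokine; below, cells without TNF are those of the IL4+IL13 group and cells with TNF those of the IL4+IL13+TNF group. The methods name male mice for BMDM culture, their age is not given in the sources used here, and all groups share the M-CSF culture and IL4+IL13, so no unstimulated cells enter the comparison. Single live cells were sorted into 4 plates and sequenced by Smart-seq2, a full-length method without molecular identifiers, and 1386 of 1524 wells were kept (for mouse 1, 357 without and 347 with TNF, and for mouse 2, 333 without and 349 with TNF). Plates 2 and 3 held cells of mouse 1 and plates 4 and 5 cells of mouse 2, with both treatments on every plate. The comparison asks whether adding TNF to IL4+IL13 altered the expression of these genes, and how they varied from cell to cell.

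Cholesterol is built from acetyl-CoA through mevalonate, isoprenoid units, squalene and lanosterol. The transcription factor SREBP2, encoded by Srebf2, is held in the endoplasmic reticulum together with its escort SCAP and the retention protein INSIG while sterols are plentiful. When sterols run low it is carried to the Golgi apparatus, cut by proteases and released to the nucleus, where it activates the genes of the pathway through sterol regulatory elements, usually together with the factors NF-Y and Sp1. Macrophages take up much cholesterol from lipoproteins and dead cells, and adjust synthesis, uptake and export through SREBP2 and the liver X receptors (LXRs).

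The enzymes lie at different steps. Hmgcs1 (HMG-CoA synthase 1, which makes the precursor of mevalonate) spans chr13:119690379-119708260 of the mouse genome mm10. Idi1 (chr13:8885501-8892451) encodes the isomerase of the isoprenoid units, and Fdft1 (chr14:63145150-63179578) encodes squalene synthase, which commits the pathway to sterols. Sqle (chr15:59315077-59331192) encodes squalene epoxidase, and Cyp51 (chr5:4081145-4104746) encodes lanosterol demethylase. Srebf2 spans chr15:82147181-82205379 and Insig1 chr5:28071363-28078662. Scd2 (chr19:44293674-44306864) makes monounsaturated fatty acids and is a target of the SREBP factors.

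The promoters of 3 genes are shown because they represent a pathway enzyme with a match to the sterol regulatory element searched, a later enzyme and the regulator itself. RefSeq promoters (GRCm38.p6, 250 bases before to 50 after the start) matched 5 of the 8 genes, namely Hmgcs1, Insig1, Idi1, Cyp51 and Srebf2. They were searched on both strands for TCACNCCAC (sterol regulatory element), CCAAT (the box bound by NF-Y), GGGCGG (GC box, bound by Sp1) and CACGTG (E-box), of which none can contain another. Capitals mark matches of TCACNCCAC and of CCAAT, read as ATTGG on the opposite strand. The windows are chr13:119690101-119690400 (+ strand) for Hmgcs1, chr5:4104648-4104947 (- strand) for Cyp51 and chr15:82147019-82147318 (+ strand) for Srebf2.
Hmgcs1: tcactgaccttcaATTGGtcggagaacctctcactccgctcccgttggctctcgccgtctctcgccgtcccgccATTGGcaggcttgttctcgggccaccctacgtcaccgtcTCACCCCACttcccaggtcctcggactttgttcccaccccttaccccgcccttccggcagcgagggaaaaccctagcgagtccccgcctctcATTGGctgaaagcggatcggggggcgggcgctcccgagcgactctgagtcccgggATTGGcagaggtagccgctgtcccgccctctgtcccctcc
Cyp51: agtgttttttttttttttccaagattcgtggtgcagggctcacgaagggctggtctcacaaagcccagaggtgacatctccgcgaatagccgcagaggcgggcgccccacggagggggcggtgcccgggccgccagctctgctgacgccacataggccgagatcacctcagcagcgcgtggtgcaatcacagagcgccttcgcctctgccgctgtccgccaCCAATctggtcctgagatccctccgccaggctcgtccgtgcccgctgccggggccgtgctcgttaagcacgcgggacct
Srebf2: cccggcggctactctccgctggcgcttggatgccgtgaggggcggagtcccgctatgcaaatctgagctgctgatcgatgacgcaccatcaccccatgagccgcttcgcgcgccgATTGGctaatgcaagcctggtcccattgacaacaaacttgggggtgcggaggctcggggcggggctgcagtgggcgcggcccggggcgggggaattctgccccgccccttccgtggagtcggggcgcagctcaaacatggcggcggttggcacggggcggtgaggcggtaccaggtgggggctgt

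Of the 5 windows, TCACNCCAC was found in that of Hmgcs1 alone, 137 to 129 bases before the start, against 1.24% of all 32817 promoters of the same length. A CCAAT box was found in all 5, against 37.4% of all promoters, with 4 matches in Hmgcs1, 2 in Idi1 and 1 in each of the others. A GC box was also found in all 5, against 35.6% of all promoters, and was most frequent in Srebf2 with 5 matches. An E-box was found in Insig1 alone, against 7.15% of all promoters. A match is a match of letters and not a measured binding site. Only these letters were searched, so a window without a match may still hold a variant of the element.

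The kept wells held between 200235 and 6122892 fragments assigned to genes, with medians of 415363 to 492791 across the 8 sets of cells of 1 plate and 1 treatment. Macrophage markers (8 genes, among them Csf1r and Adgre1) summed to 16395 to 27535 CPM (fragments of a gene scaled to equal library totals) in each mouse and treatment. Summed levels of 5 dendritic cell markers lay between 9.17 and 203.8 CPM, highest in the TNF-treated cells of mouse 2. Of these, Ccr7 had a mean of 0.272 CPM without and 108 CPM with TNF (SD 123 over 2 mice). The means without and with TNF were 6.95 and 7.35 CPM for Flt3, 1.67 and 4.08 CPM for Zbtb46, and 1.37 and 0.14 CPM for Cd209a. Xcr1 was too low to be tested. The neutrophil, mast cell and basophil, stromal and lymphocyte markers each summed to 5.35 CPM or less, and the basophil marker Prss34 was at 0 in every kept well. Cells of 1 mouse are not replicates, so treatments were compared over the fragments summed per mouse and treatment, with 2 mice in each group.

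All 8 genes were expressed in both treatments. Compared per kb of exon, as RPKM, the CPM divided by the exon length in kb, Scd2 stood highest without TNF, with 65.7 ± 20.6 (SD, n = 2 mice). Hmgcs1 followed with 34.8 ± 3.55, Cyp51 with 27.4 ± 9.33, Sqle with 21.7 ± 11.5, Insig1 with 19.4 ± 5.76, Fdft1 with 15.7 ± 8.37 and Srebf2 with 12.6 ± 1.98, and Idi1 was lowest with 4.96 ± 3.76. Neighbours in the stretch from Hmgcs1 to Srebf2 differed by less than the larger of their SDs, whereas Scd2 and Hmgcs1, and Srebf2 and Idi1, differed by more. The RPKM order with TNF was the same, from 73.6 ± 18.4 for Scd2 to 4.398 ± 0.988 for Idi1.

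None of the 8 genes was called changed by TNF, where 1 of 17034 genes tested was called (0.00587%). All 8 passed the filter on low values, and none had an unadjusted p under 0.05. P-values came from the quasi-likelihood fit of edgeR and were adjusted by Benjamini-Hochberg across the whole table, with a threshold of 0.05. With the mouse as a block, which takes out differences between the mice, 651 genes were called (3.82%), and none of the 8 was among them. DESeq2 without a block called 598 genes (3.51%), again none of the 8. With 2 mice against 2, an exact permutation test of a single gene cannot go below p = 0.33, so none was run. None of the 8 was called under any of 19 alternatives of the fit. Many of these called few genes at all, such as 1 with library size in place of TMM and 12 with spike-in totals. Such fits say little about the 8 genes. With the block and spike-in totals together, edgeR called 1265 genes, and its lowest adjusted p among the 8 was 0.254 for Scd2.

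The early enzyme Hmgcs1 had 172 CPM in mouse 1 and 148 CPM in mouse 2 without TNF, and 116 and 141 CPM with TNF. Cells with TNF lay below those without in both mice, more so in mouse 1. Its log2 fold change was -0.32 (SE 0.19, adjusted p = 0.783 in edgeR), and -0.32 (SE 0.15, adjusted p = 0.295) with the mouse as a block. On single plates it lay at log2 ratios of -0.64, -0.50, -0.28 and 0.14 for plates 2 to 5.

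The retention protein gene Insig1 was the other gene lower with TNF in both mice. In mouse 1 it had 72.5 CPM without and 50.8 CPM with TNF, and in mouse 2 it had 47.3 and 42.6 CPM, so that the groups overlapped. The log2 fold change was -0.36 (SE 0.27, adjusted p = 0.849 in edgeR), or -0.33 (SE 0.14, adjusted p = 0.261) with the mouse as a block. Plates 2, 3 and 4 gave log2 ratios of -0.72, -0.36 and -0.65, and plate 5 gave 0.34. Thus 2 of the 8 genes were lower in both mice, against 32.4% of all genes tested. None of the 8 was lower on all 4 plates (16.8% of all genes) or higher on all 4 (18.7%).

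Scd2 was higher with TNF in both mice, the only one of the 8, against 34.3% of all genes tested. Its levels were 439 CPM without and 473 CPM with TNF in mouse 1, and 279 and 331 CPM in mouse 2. The difference between the mice was larger than that between the treatments, and the groups overlapped. The log2 fold change was 0.16 (SE 0.30, adjusted p = 0.954 in edgeR), and 0.18 (SE 0.095, adjusted p = 0.365) with the mouse as a block.

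For the other 5 genes the mice gave opposite signs, with TNF-treated cells lower in mouse 1 and higher in mouse 2. Over all genes tested, 32.4% were lower and 34.3% higher in both mice, and the rest had no shared sign. Idi1 had the widest split, with 26.7 CPM in mouse 1 and 8.07 CPM in mouse 2 without TNF, and 17.9 and 12.97 CPM with it. Both treated samples lay between the untreated ones, and the log2 ratio of Idi1 was -0.57 in mouse 1 and 0.65 in mouse 2. Its fitted log2 fold change was -0.17 (SE 0.59, adjusted p = 0.983 in edgeR), and turned to 0.049 (SE 0.33, adjusted p = 0.951) with the mouse as a block.

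Fdft1 had 89.1 CPM without and 60.3 CPM with TNF in mouse 1, and 40.3 and 47.2 CPM in mouse 2. Sqle had 166 and 138 CPM in mouse 1, without and with TNF, and 75.6 and 86.0 CPM in mouse 2. In these genes too, the treated samples of both mice lay inside the range of the untreated ones. Their log2 fold changes were -0.27 (SE 0.41) for Fdft1 and -0.11 (SE 0.44) for Sqle.

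Cyp51 had 150.0 CPM without and 119 CPM with TNF in mouse 1, and 91.7 and 96.2 CPM in mouse 2, again with the treated samples inside the range of the others. Srebf2, the regulator, had 101 CPM without and 79.8 CPM with TNF in mouse 1, and 80.5 and 87.5 CPM in mouse 2, where the groups overlapped. The log2 fold changes were -0.17 (SE 0.29) for Cyp51 and -0.12 (SE 0.20) for Srebf2. Adjusted p-values in edgeR for Fdft1, Sqle, Cyp51 and Srebf2 lay between 0.943 and 0.986, and with the block between 0.637 and 0.906.

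**Figure D1:**
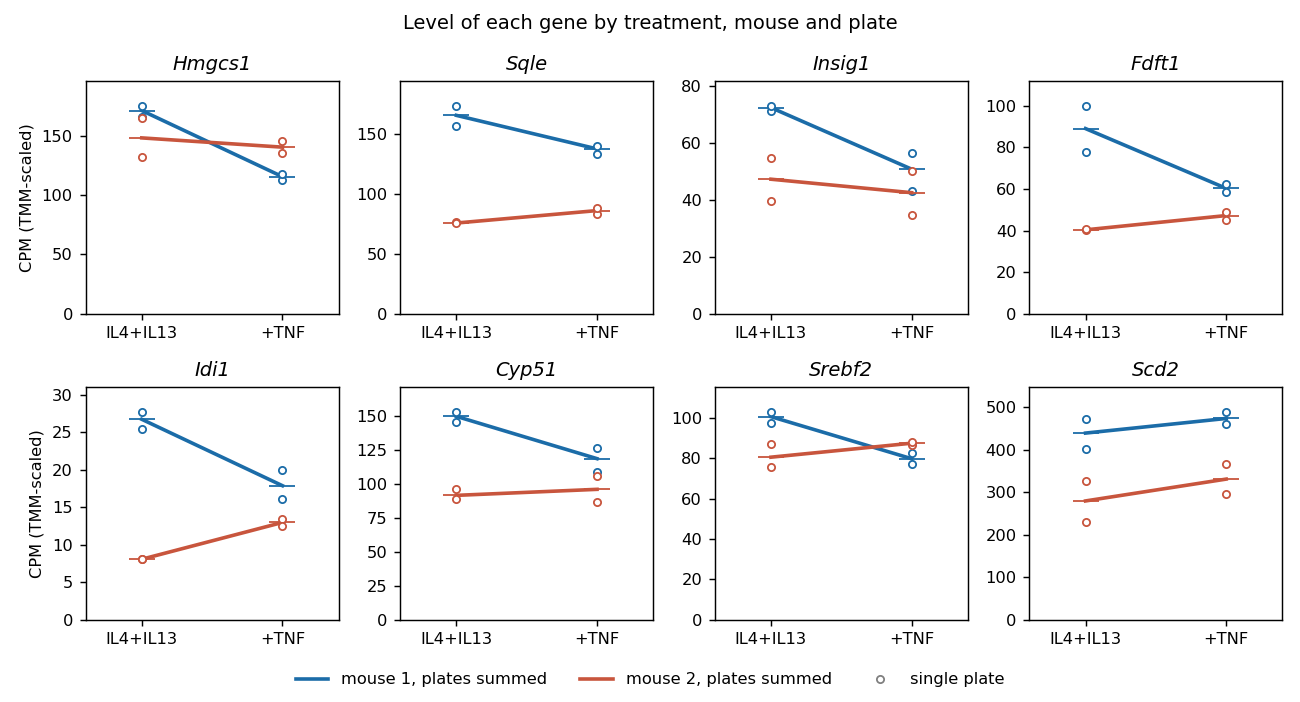
Level of each of the 8 genes in CPM (scaled by TMM, axis from 0) in the IL4+IL13 group and after adding TNF. Lines join the sums over the plates of 1 mouse and open circles are single plates. With IL4+IL13, the plates of mouse 1 (blue) lie above those of mouse 2 (red) for all 8 genes, for Idi1 at 25.5 and 27.7 against 8.13 and 8.10 CPM.

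**Figure D2:**
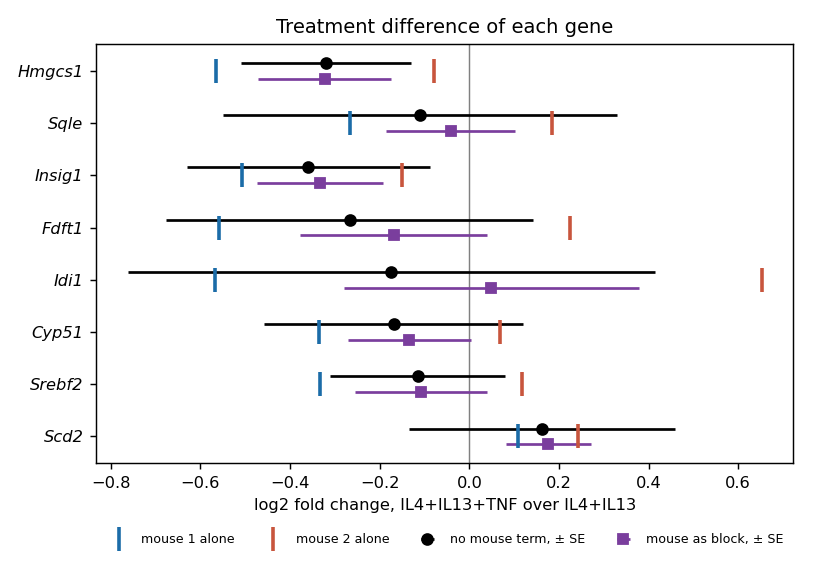
Log2 fold change of IL4+IL13+TNF over IL4+IL13 for each gene, without a mouse term (black circles) and with the mouse as a block (purple squares), each ± SE, and the log2 ratio in each mouse alone (ticks). For 5 of the 8 genes the ticks of the mice lie on opposite sides of 0, and the SE is smaller with the block for all 8.

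The median log2 fold change over the 8 genes was -0.17, against 0.00 over all genes tested, and lay at -0.42 in mouse 1 and 0.15 in mouse 2. It was -0.12 with the mouse as a block. Scaling by spike-in totals put the median of all genes at 0.15 and that of the 8 genes at -0.11, or -0.26 relative to all genes. With the block and the spike-in totals together, the median turned to 0.046, against 0.18 over all genes. In mouse 1, 7 of the 8 genes were lower with TNF, against 49.4% of all genes tested, and in mouse 2, 6 of the 8 were higher, against 51.4%.

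The mice differed too, most clearly without TNF. With IL4+IL13 alone, both plates of mouse 1 lay above both plates of mouse 2 for all 8 genes, a pattern shown by 28.6% of all genes tested. The level of mouse 2 as a ratio of that of mouse 1 was lowest for Idi1 at 0.302, Fdft1 at 0.453 and Sqle at 0.457, and closest to 1 for Srebf2 at 0.800 and Hmgcs1 at 0.865. With IL4+IL13+TNF, both plates of mouse 1 lay above those of mouse 2 for 5 of the 8 genes, against 26.8% of all genes tested. Hmgcs1 and Srebf2 were then higher on both plates of mouse 2 (26.7% of all genes), and Insig1 overlapped. The summed level of the 8 genes in mouse 1 was 1215 CPM without and 1054 CPM with TNF, and in mouse 2 it was 771 and 844 CPM. Mouse 2 alone thus had TNF-treated cells above untreated cells in the sum, which held on plate 4 (871 against 836 CPM) and plate 5 (816 against 709 CPM). On plates 2 and 3 the sums were 1051 and 1052 CPM with TNF, against 1197 and 1222 CPM.

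Each mouse has its own plates, so mouse, culture and plate cannot be told apart, and the difference between the mice has no test. Between the mice, other measures of the untreated cells moved as well. The median number of detected genes was 7874 in mouse 1 and 7431 in mouse 2, the median mitochondrial share 3.11% and 3.75%, and the median spike-in share 0.0444% and 0.0675%. Their part in the difference was not tested.

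Detection, meaning 1 or more fragments in a cell, was taken from the 1250 cells deep enough to be thinned to 339000 fragments each. Scd2 was found in 97.1% to 99.1% of the cells in every mouse and treatment. Idi1 was found in 74.4% of the untreated cells of mouse 1 (95% Clopper-Pearson interval 69.3% to 79.0%) and in 45.3% of those of mouse 2 (39.7% to 51.0%). With TNF the shares of cells with Idi1 were 68.6% (63.1% to 73.8%) and 48.0% (42.3% to 53.8%). Thus the mice were apart in both treatments, by more than counting error, and the treatments within a mouse had overlapping intervals.

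Fdft1 showed a similar split without TNF, at 85.8% (81.6% to 89.4%) of cells in mouse 1 and 57.9% (52.2% to 63.5%) in mouse 2, with 78.5% and 68.0% with TNF. Averaged over the mice, the share with TNF minus the share without ranged from -6.31 percentage points for Insig1 (SD 8.44 over 2 mice) to 2.20 for Sqle (SD 3.01). For Insig1 the difference was -12.3 percentage points in mouse 1 and -0.336 in mouse 2. All 8 mean differences except that of Scd2, at -0.058 points (SD 0.041), were smaller than their SD over the mice. Without thinning, the share with Idi1 was 76.5% and 49.2% without TNF and 70.0% and 50.1% with it. The intervals cover counting error over cells only and leave out the spread between mice. Copies made by PCR are counted as fragments.

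**Figure D3:**
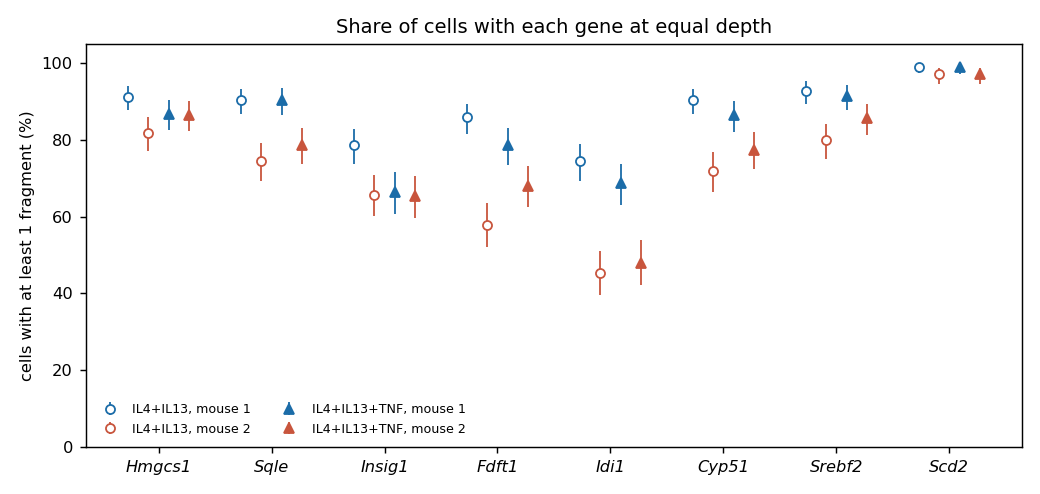
Percentage of cells in which each gene was detected, in cells thinned to 339000 fragments, for each mouse and treatment, with 95% Clopper-Pearson intervals. Circles are IL4+IL13 and triangles IL4+IL13+TNF, and mouse 2 (red) lies below mouse 1 (blue) with IL4+IL13 for all 8 genes, most widely for Idi1 and Fdft1.

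Within a mouse and treatment, the cells covered a wide range. The summed level of the 8 genes in a thinned cell had a median of 1176 CPM in the untreated cells of mouse 1, with the 10th percentile at 454 CPM and the 90th at 2091 CPM. In mouse 2 the corresponding values were 711, 226 and 1481 CPM. With TNF the medians were 920 CPM in mouse 1 and 718 CPM in mouse 2, and the 90th percentile was 4.21 and 4.89 times the 10th. Fragments of all 8 genes were found in 42.8% of the untreated cells of mouse 1 and 11.7% of those of mouse 2, and in 32.7% and 13.7% with TNF. No cell lacked all 8.

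Scd2 was spread most evenly, since the 5% of cells with the highest level held 15.4% to 19.3% of its CPM. For Idi1 these cells held 23.8% to 50.2%, the latter in the TNF-treated cells of mouse 2, where a single cell reached 263 CPM against a median of 0. Srebf2 ranged from a 10th percentile of 2.95 CPM to a 90th of 218 CPM in the untreated cells of mouse 1.

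The 8 genes varied together across cells. Spearman's rho was computed for each of the 28 pairs within each of the 8 sets of cells of 1 plate and treatment (128 to 175 cells each) and averaged over the sets. All 28 mean values were above 0, with a median of 0.158, and 20 pairs were positive in all 8 sets. The highest mean rho was that of Hmgcs1 with Scd2 (0.254, range over sets 0.120 to 0.430), followed by Fdft1 with Cyp51 (0.232) and Sqle with Cyp51 (0.230). The lowest was that of Insig1 with Srebf2 (0.079, range -0.006 to 0.238). These are correlations across cells, which share libraries and plates and are not replicates, and the values are small.

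Sets differed in how closely the genes moved together. The median rho over pairs was 0.181 and 0.209 on the plates of mouse 1 with IL4+IL13, and 0.084 and 0.098 on those of mouse 2. With IL4+IL13+TNF the plates of mouse 1 gave 0.215 and 0.161, and those of mouse 2 gave 0.152 and 0.111. Mouse 2 was lower in both treatments, as were its levels of most of the genes.

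Against all other genes tested, the pairs stood apart. Those other genes were not matched for level, and only 10644 of them were found in at least 25% of kept cells. The part of level in the margins was not tested. The median rho of Sqle with the other members was 0.208, whereas over 17026 other genes its rho had a median of 0.008 and a 99th percentile of 0.094. For each of the other 7 genes, too, the median rho with the rest of the group lay above the 99th percentile of its rho with all other genes. Srebf2 had the narrowest margin, at 0.094 against 0.079, and also the lowest rho with the mean rank of the other 7 genes (0.188). Scd2 and Sqle had the highest such rho, at 0.361 and 0.360.

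**Figure D4:**
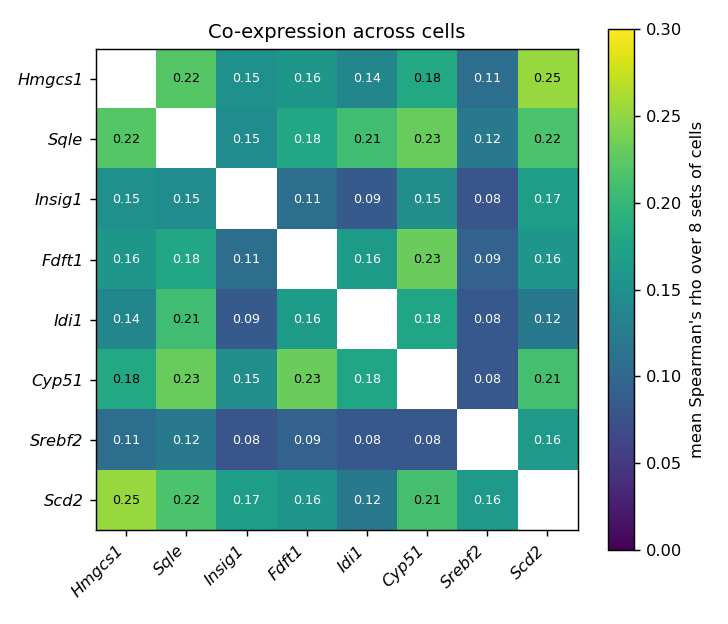
Mean Spearman's rho over the 8 sets of cells for each pair of the 8 genes (colour scale 0 to 0.30, the diagonal is blank). All pairs are above 0, from 0.079 for Insig1 with Srebf2 to 0.254 for Hmgcs1 with Scd2, and the row of Srebf2 is among the lowest.

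A score, the mean of the 8 genes' ranks within a set, was set beside other measures of the same cells. With the number of detected genes it had a mean rho of 0.213 over the 8 sets (0.127 to 0.284). Given the number of detected genes and a cycling score, the median rho over the 28 pairs was 0.144. Total fragments (0.019), the spike-in share (-0.048), the mitochondrial share (0.012) and the well row (-0.007) and column (0.034) had mean rho values near 0 with the score. Mean ranks of cycling genes gave 0.090, of macrophage markers 0.039, of dendritic cell markers 0.045 and of antigen-presentation genes such as H2-Aa and Cd74 -0.067. For short lists of genes that mark macrophage states, the mean rho was 0.0389 for the C1q genes (-0.133 to 0.242 over the 8 sets), 0.0774 for Gpnmb, Fabp4, Fabp5 and Spp1 (-0.0642 to 0.242), 0.00992 for interferon-induced genes (-0.0961 to 0.103) and 0.0113 for stress genes such as Ddit3 and Trib3 (-0.139 to 0.221).

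The genes most like the score were named by a rule: the 10 non-members with the highest mean rho among 10644 genes found in at least 25% of kept cells. Of these, 4 were enzymes of the same pathway. They were Fdps (0.398), which makes farnesyl diphosphate, Msmo1 (0.397) and Sc5d (0.347), which act after lanosterol, and Acat2 (0.351), which joins acetyl-CoA units at the start. Acat2 is 97.7% identical to its paralog Acat3 over 1477 bases, and 98.7% identical to Tcp1 over 445 bases. Acat3 held 5809 fragments and Tcp1 117467, against 47535 of Acat2, so the fragments of Acat2 are uncertain.

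The other 6 of the 10 were processed pseudogenes, which are intronless copies of an enzyme's transcript. Gm3571 (0.431), the highest of all, Gm5873 (0.375), Gm7979 (0.328) and Gm8163 (0.312) match Fdps transcripts at 92.9% to 98.9% identity over 1060 to 1066 bases. Gm6781 (0.387) matches Fdft1 at 97.4% over 1249 bases, and Gm13502 (0.334) matches Idi1 at 100% over 684 bases. Gm3571 held 84829 fragments, 320% of those counted for Fdps, its source. Reads that fall in such stretches cannot be assigned with certainty.

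This bears on the levels of 3 of the 8 genes. Gm6781 held 9070 fragments, 22.3% of the 40630 of Fdft1, and Gm13502 held 6670, 59.2% of the 11265 of Idi1. Across cells, Fdft1 and Gm6781 had a mean rho of 0.804 (0.680 to 0.890), and Idi1 and Gm13502 0.641 (0.307 to 0.817), above that of any pair of the 8 genes. Scd2 is 95.5% identical over 623 bases to its paralog Scd1, which held 78514 fragments against 258417. Hmgcs1, Sqle, Insig1, Cyp51 and Srebf2 had no such copy of at least 90% identity over 200 bases. When Fdft1 and Idi1 were summed with their pseudogene copies, an alternative added after seeing the data, the median rho of the pairs was 0.152 and none of the 8 genes was called.

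The counting did not use strand, and Fdft1 shares 18.8% of its exon bases with Ctsb, a cathepsin gene on the opposite strand with 8239119 fragments. Fdft1 and Ctsb had a mean rho of -0.015 across cells. Cyp51 shares 3.76% of its exon bases with Akap9, and Hmgcs1 and Idi1 overlap antisense genes with 13 and 0 fragments.

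Of the other 17 sterol synthesis enzymes, none was called in the fit without a block, and the median log2 fold change was -0.17, against 0.00 over all genes tested. The largest values above 0 were those of Mvd (0.58, SE 0.30) and Lss (0.15, SE 0.27), which make isopentenyl diphosphate and lanosterol. The lowest was that of Lbr (-1.03, SE 0.35), a sterol reductase and lamin B receptor of the nuclear envelope. Lbr fell with the mouse as a block (log2 fold change -1.07, adjusted p = 0.036 in edgeR), the only one of the 17. That fit called 1.88% of all genes tested lower, and Lbr was not called by DESeq2 without a block (adjusted p = 0.113 in DESeq2). Across cells these enzymes had the closest relation to the score of the 8 genes: their mean ranks gave a mean rho of 0.578 (0.403 to 0.706), and 13 of the 17 were among the 40 genes most like it. Ggps1 (0.037), which leads to a branch outside sterols, and Ebp (0.078) were among the exceptions.

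The 12 fatty acid synthesis and desaturation genes had a median log2 fold change of -0.10, and none was called without a block. Me1 (0.67, SE 0.47) and Acaca (0.22, SE 0.21) lay highest, and Lpin1 (-0.97, SE 0.35) and Elovl6 (-0.36, SE 0.39) lowest. Lpin1, a phosphatidate phosphatase, fell with the block (log2 fold change -0.94, adjusted p = 0.028 in edgeR), where 1.88% of all genes were called lower. DESeq2 without a block did not call Lpin1 (adjusted p = 0.164 in DESeq2). The mean ranks of the list gave a mean rho of 0.441 with the score, and 5 of its genes, among them Fasn (0.293), Fads2 (0.273) and Acly (0.242), were in the 40 most alike.

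SREBP control and uptake genes numbered 13, of which 12 were tested and none was called with or without the block. Npc2 (0.20, SE 0.12) and Rnf139 (0.13, SE 0.22) had the highest log2 fold changes, and Mylip (-0.53, SE 0.49) and Stard4 (-0.48, SE 0.26) the lowest. The median was -0.15. The mean ranks of this list had a mean rho of 0.188 with the score (-0.00055 to 0.440, above 0 in 7 of 8 sets). Gene by gene the median rho was 0.039, against 0.020 over all genes ranked, and Stard4 (0.227), a sterol carrier, was among the 40 most alike. Scap (0.037) and Insig2 (0.037) were not.

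The genes of LXR signalling and sterol export differed with TNF in some members. With the mouse as a block, 3 of the 10 were called, where 1.94% of all genes were called higher and 1.88% lower: Nr1h3, which encodes LXRα, rose (log2 fold change 1.43, adjusted p = 0.016), as did the cholesterol exporter Abca1 (1.42, adjusted p = 0.014), and the sterol hydroxylase Cyp27a1 fell (-1.28, adjusted p = 0.019, all in edgeR). Without the block edgeR called none, whereas DESeq2, also without a block, called 3 of the 10, where it called 1.79% of all genes higher and 1.72% lower: Nr1h3 (adjusted p = 0.00026) and Ch25h (adjusted p = 5.0e-06) higher and Cyp27a1 (adjusted p = 0.036) lower. Ch25h, which makes 25-hydroxycholesterol, had a log2 fold change of 3.36 (SE 0.76, adjusted p = 0.347 in edgeR), and edgeR with the block gave an adjusted p of 0.073. Nceh1, a cholesteryl ester hydrolase, lay at -0.50 (SE 0.14). Across cells the mean ranks of this list had a mean rho of -0.033 with the score. Its genes differed in sign: Abca1 was below 0 in all 8 sets (mean -0.091) and Lpcat3 above 0 in all 8 (mean 0.122). Whether the treatment differences of these genes differ from those of the 8 synthesis genes was not tested.

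Genes of cycling cells, which need sterols for new membrane, had log2 fold changes below 0 in 12 of 12, where 49.6% of all genes tested did, from -1.29 (Mki67) and -1.16 (Ube2c) to -0.20 (Tk1). Without the block edgeR called none of them, and with it 7 fell, where 1.88% of all genes were called lower. DESeq2 without a block called 2 of them lower, Mki67 (adjusted p = 4.9e-06) and Ube2c (adjusted p = 0.026), where it called 1.72% of all genes lower. Their summed level was 1362 CPM without and 731 CPM with TNF in mouse 1, and 830 and 453 CPM in mouse 2, so that mouse 1 was higher in both treatments here too. The part of cycling cells in the difference between the mice was not tested.

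**Figure D5:**
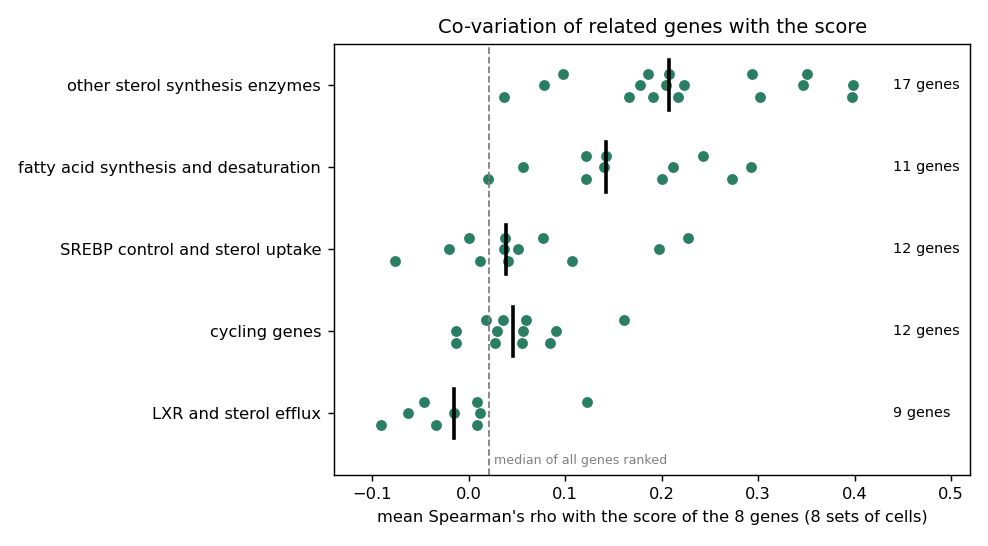
Mean Spearman's rho with the score of the 8 genes for each gene of 5 lists (points), with the median of each list (black bar) and of all 10644 genes ranked (dashed line, 0.020). Other sterol synthesis enzymes lie highest with a median of 0.208, followed by fatty acid genes at 0.142, and the LXR and export genes lie lowest at -0.015.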

How the data were processed

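The authors deposited 1 table of fragment counts per gene and well, not normalized: per the paper, gsnap placed the fragments on mm10 and featureCounts 1.6.3 counted the unique ones over Ensembl 98 genes, without strand per the file header. The 92 spike-in rows stayed out of totals and tests, and 8 columns without a matching label were left unread. Of 55421 genes, 55154 matched a symbol. Wells were dropped per plate at 3 median absolute deviations in depth, detected genes, mitochondrial or spike-in share. No doublet caller was run on the sorted wells. Counts of kept wells were summed per mouse and treatment, genes found in 5% of the cells of a treatment and passing filterByExpr were tested with edgeR 4.0.16 (TMM, quasi-likelihood), and CPM was scaled by TMM. Log2 ratios in a mouse or plate used a pseudocount of 0.5 CPM. DESeq2 1.42.0 and limma 3.58.1 (log2 of CPM + 1) were alternatives. By the sample titles, samples with the same number come from the same mouse, so a blocked fit stands beside the main one. Their deviations had a correlation of 0.562 over 17034 genes. Such samples also share plates, so the correlation cannot tell mouse from plate. Shares and correlations used cells thinned to 339000 fragments, the 10th percentile of depth, which left out 136 shallower cells (25 and 24 without TNF, 44 and 43 with it, in mouse 1 and mouse 2). Copies were sought with BLAST+ 2.17.0 in GENCODE M21 transcripts (at least 90% identity over 200 bases), and promoters came from RefSeq. The fit was tested on simulated data. Named genes are the 8 members, the called or otherwise the 2 highest and 2 lowest genes of each list, and the 10 genes most like the score; other genes named were chosen after their values were seen. Members and lists were chosen with earlier results of these data known. Values of some single genes of the related lists are not reported here.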

Additional observations from a re-analysis of the deposited data

Results flagged for a closer look

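For 4 genes, every plate of mouse 1 had TNF-treated cells below the IL4+IL13 cells and every plate of mouse 2 had them above, a difference that was not tested. The log2 ratios in mouse 1 and mouse 2 were -0.27 and 0.18 for Sqle, -0.56 and 0.22 for Fdft1, -0.57 and 0.65 for Idi1, and -0.33 and 0.12 for Srebf2. On plate 5 the log2 ratio of Srebf2 was only 0.015. The share of all genes with this pattern is not given here, so how unusual it is cannot be judged. In 16 groups of 4 plates, 1 for each gene and treatment, no plate stood apart from the other 3 by Dixon's criterion. Each group held 2 plates of each mouse. Where the mice lie apart, the range is wide and the criterion can hardly be met, so nothing is concluded about single plates.

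Fragments of the 8 genes were also found in 3 of 4 wells labelled IL4+IL13 but with no mouse, which entered no comparison (the other was not analysed here). They held 314 fragments of the 8 genes on plate 3 (1124 CPM), 358 on plate 4 (1009 CPM) and 48 on plate 5 (550 CPM), above the 3 fragments that a count of 0 allows.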

How the results depend on the processing

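None of the 8 genes was called under any of 19 alternatives of the fit, and the sign of the log2 fold change was that of the edgeR fit without a block in 138 of 152 values. The count over all genes tested was 1 in that fit, 651 with the mouse as a replicate block, 598 with DESeq2, 12 with spike-in totals, 2 with thinned cells, 5 without plate 2, 2 without plate 5, and 1265 with the block and spike-in totals together (added after seeing the data). Leaving out 1 sample in turn gave 4 to 30. The median over the 8 genes ranged from -0.52 to 0.32 on leaving out 1 sample, turning positive without the IL4+IL13 sample of mouse 1, and was 0.046 with the block and spike-in totals. The block changed no call of the 8 genes but turned Idi1 to 0.049. With the block and spike-in totals, Sqle turned to 0.13, Idi1 to 0.22, Cyp51 to 0.033 and Srebf2 to 0.059. On leaving out 1 sample, log2 fold changes ranged from -0.56 to 0.56 for Sqle, -0.73 to 0.41 for Fdft1, -0.79 to 0.93 for Idi1, -0.48 to 0.22 for Cyp51, -0.26 to 0.049 for Srebf2, -0.12 to 0.52 for Scd2, -0.63 to -0.024 for Insig1 and -0.47 to -0.19 for Hmgcs1. Without a filter on wells, Cyp51 lay at -0.66 and Fdft1 at -0.55, against -0.17 and -0.27 with it. Keeping the 1520 of 1524 wells with at least 1000 detected genes and a mitochondrial share of at most 10% gave -0.19 and -0.27. Where an arm held 1 sample, it was assumed to vary like the other group. Those fits had no mouse term and set 1 mouse of a treatment against both mice of the other. Their ranges thus also hold the difference between the mice. Of 16 alternative differences in shares of cells, 2 turned: Hmgcs1 to -0.343 percentage points without thinning, and Scd2 to 3.68 at 5 fragments or more, while Scd2 without thinning moved to -0.407. The median rho of the pairs stayed between 0.144 and 0.162 under 6 alternatives. The cause of these moves was not tested.

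The number of mice, 2 per treatment, limits the precision. Fragments are not molecules, and cells of a mouse share a culture.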
